A study of Mus musculus with 45 samples.

Results

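The cytosolic ribosomal protein genes were followed across 45 RNA libraries of mouse hippocampal primary neurons in which action potential (AP) firing was induced, interrupted, or interrupted in the presence of NMDA. Members were the protein-coding genes with a symbol of Rpl or Rps followed by a digit, together with Rpsa, Rplp0, Rplp1 and Rplp2, without the kinases Rps6k and with a mean of at least 5 CPM (counts scaled to library size) over the 45 libraries. Of 86 symbols that met the name rule among 54532 rows of the count table, 79 reached this minimum. They comprised 47 genes of the large subunit, 31 of the small subunit and Rps19bp1, whose product binds Rps19 and is no subunit.

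The cultures came from newborn C57BL/6N mice (postnatal day 0), were grown in B27 with 1% rat serum and received the mitotic inhibitor AraC on day in vitro (DIV) 3. They were treated on DIV10 or 11 by the labels, where the authors give DIV11 for RNA sequencing. Bicuculline (Bic, 50 µM), an antagonist of the GABA type A receptor, was given for 0.5, 1 or 2 h, and the Control was untreated. Tetrodotoxin (TTX, 1 µM), a blocker of AP firing, was added to Bic-treated cultures alone or together with NMDA (30 µM), after 0.5 h for another 0.5 h in the short protocol (SP) and after 1 h for another 1 h in the long protocol (LP). A further LP group received TBOA (50 µM), which blocks glutamate uptake, in place of TTX. Each of the 9 conditions had 5 libraries, 1 from each of the culture preparations numbered 1, 3, 6, 7 and 8. The passive effect compares TTX with Bic of the same total duration, the active effect compares TTX/NMDA with TTX, the total effect compares TTX/NMDA with Bic, and glutamate spillover compares TBOA with 2 h Bic.

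Ribosomal proteins assemble with ribosomal RNA into the small subunit, which reads the mRNA, and the large subunit, which forms peptide bonds. Their mRNAs are among the most abundant of most cells and typically begin with a C followed by a stretch of pyrimidines, the 5′ terminal oligopyrimidine (TOP) motif, through which mTORC1 signaling and the RNA-binding protein LARP1 control their translation and stability. In neurons these mRNAs are also found in dendrites and axons.

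The start-site windows below, from RefSeq (GRCm38.p6), show the pyrimidine runs around the annotated start of members that the results return to. Rps6, Rpl15 and Rpl22 were among the members with the smallest change under NMDA in the LP, and Rpl22l1, Rps27l, Rps28, Rpl38 and Rps21 among those with the largest. Each window runs 5′ to 3′ from 30 bases before the annotated start to 20 bases after it, and capitals mark the longest run of C and T that reaches within 20 bases of the start, on either side of it. Where runs of equal length tied, as in Rps27l and Rpl22, the first is marked.
Rps6: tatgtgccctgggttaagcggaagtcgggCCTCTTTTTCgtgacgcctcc
Rpl15: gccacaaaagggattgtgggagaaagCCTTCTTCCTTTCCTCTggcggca
Rpl22: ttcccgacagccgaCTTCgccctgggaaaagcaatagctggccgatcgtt
Rpl22l1: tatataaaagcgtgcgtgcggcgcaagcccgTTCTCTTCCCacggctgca
Rps27l: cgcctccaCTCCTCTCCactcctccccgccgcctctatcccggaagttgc
Rps28: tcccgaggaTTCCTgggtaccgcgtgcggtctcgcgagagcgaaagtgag
Rpl38: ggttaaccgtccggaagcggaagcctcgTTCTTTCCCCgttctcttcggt
Rps21: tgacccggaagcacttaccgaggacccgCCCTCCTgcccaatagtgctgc

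These windows lie at chr4:86857348-86857397 (minus strand) for Rps6, chr14:18270967-18271016 (minus strand) for Rpl15, chr4:152325696-152325745 (plus strand) for Rpl22 and chr3:28805478-28805527 (plus strand) for Rpl22l1. Those of Rps27l, Rpl38 and Rps21, all on the plus strand, lie at chr9:66946056-66946105, chr11:114668550-114668599 and chr2:180257349-180257398, and that of Rps28 lies at chr17:33824543-33824592 (minus strand). A run of 10 pyrimidines began 1 base before the annotated start of Rps6, and one of 17 began 4 bases before that of Rpl15. Rpl38 and Rpl22l1 each had a run of 10, Rps21 of 7 and Rps28 of 5. In Rpl22, Rps27l and Rps28 the marked run ended before the annotated start and thus lies outside the annotated transcript. Both long and short runs thus occurred on either side of the comparison.

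Windows of 250 bases before to 50 bases after the start were matched by symbol for 59 of the 79 members. A pyrimidine run of at least 6 bases reached within 20 bases of the start, before or after it, in 39 of the 59 windows (66.1%), against 43.9% of the 27025 windows of all genes, and a run of at least 10 in 20 of them (33.9%), against 10.4%. The median longest run was 7 bases in the members and 5 in all genes. Among the 59, runs of at least 6 were present in 32 of 48 members (66.7%) that rose under NMDA in the LP and in 7 of 11 (63.6%) that were not called. The sequence CCGGAAG, searched on both strands as the core of the sites that ETS family factors bind, was found in 38.98% of the members' windows and 9.12% of all windows. Its reverse complement begins with CTTCC and can therefore overlap a pyrimidine run.

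Levels of the 79 members spanned a wide range, and all were well covered. The mean CPM, which is not corrected for gene length, ran from 13.3 (Rpl13a) to 433 (Rpl4) with a median of 106, and the lowest raw count of any member in any library was 120. Rpl4, which lines the exit tunnel, was followed by Rpsa, Rplp1, Rps2, Rplp0, Rps3, Rpl3, Rps14, Rpl9 and Rpl8. Rpl27, Rpl35a, Rps19bp1, Rps27l and Rpl13a had the lowest mean CPM. Per kilobase of merged exons, Rplp1, an acidic protein of the stalk that recruits elongation factors, was highest with 719 CPM per kilobase, and Rpl13a was lowest with 6.30. The members just inside the minimum were Rpl13a at 13.3 and Rps27l at 14.1 CPM. The 7 symbols outside it were Rps10 at 2.35, Rpl36al at 0.809, Rps27rt at 0.266, Rpl3l at 0.241, Rpl24 at 0.137, Rpl39l at 0.0726 and Rpl10l at 0.0009 CPM.

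Ribosomal protein genes have many processed copies in the genome, and the authors counted neither reads that mapped to several places nor reads that overlapped several genes. In the members, a median of 16.5% of all windows of 75 bases (the read length) occurred identically in transcripts of another gene, with a range from 0 to 70.9%. Rpl36 had the highest share. In Rps6 42.2% of the windows were shared, in Rpl23a 47.6% and in Rplp1 45.9%, whereas Rps27l had 5.45% and Rps24 3.11%. The level of such a gene is therefore a lower limit, and only its change between conditions is used below. In Rpl24, which fell under the minimum, 50.3% of the windows were shared and 47.0% of the exon bases overlapped another gene on the same strand.

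Summed over the 79 members, the share of all counts on genes was highest under NMDA in the LP. In LP TTX/NMDA it was 1.41%, 1.21%, 1.20%, 1.35% and 1.24% in preparations 1, 3, 6, 7 and 8. In LP TTX the same preparations gave 0.919%, 0.914%, 0.868%, 0.867% and 0.891%, so that the 2 groups did not overlap. The ratio within preparations was 1.44 ± 0.11 (SD, n = 5). Scaled to the TMM effective library size in place of all counts, it was 1.28 ± 0.08 (SD, n = 5), because total counts and TMM scale LP TTX/NMDA differently.

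**Figure D1:**
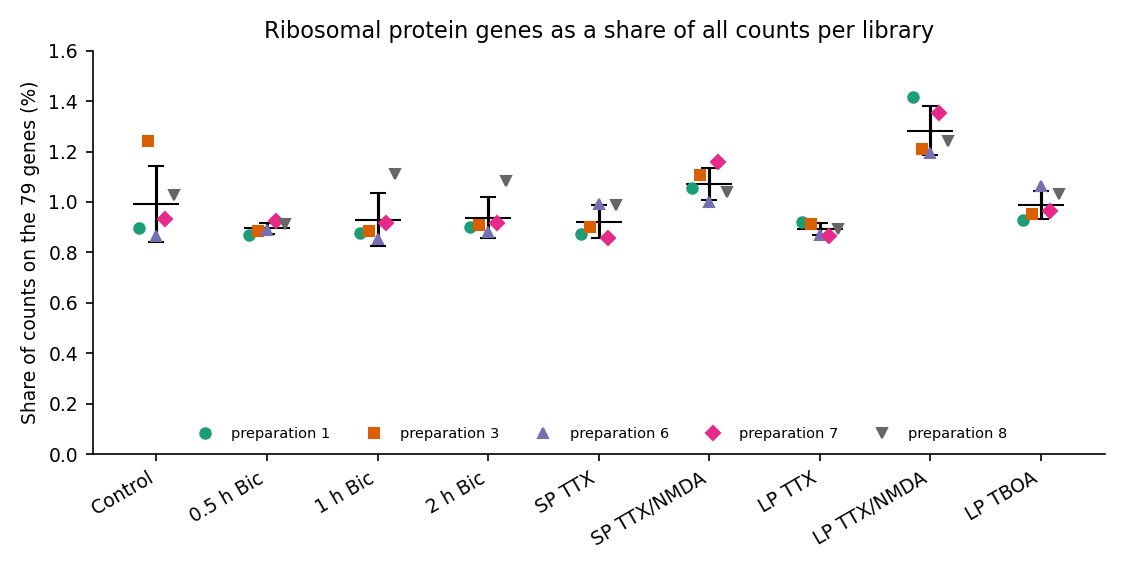
Share of all counts on genes (y axis, %) that fell on the 79 ribosomal protein genes, in each of the 45 libraries by condition (x axis). Points are libraries with 1 symbol per culture preparation, and bars are the mean ± SD of 5. LP TTX/NMDA lay between 1.20% and 1.41%, and Control preparation 3 at 1.24% stood above the other Control libraries.

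3 libraries of the reference conditions stood apart in this share. Control preparation 3 had 1.24%, against 0.864% to 1.03% in the other Control libraries. In preparation 8, 1 h Bic had 1.11% and 2 h Bic 1.08%, each above the other 4 libraries of its condition. Some comparisons with these libraries are also given without them below. The LP total and SP passive effects are not, and 1 h Bic against Control is given without the Control library only. SP TTX/NMDA ranged from 0.999% to 1.16% and SP TTX from 0.856% to 0.994%, again without overlap, and LP TBOA ranged from 0.928% to 1.06%.

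The libraries held 11316580 to 81129276 counts on genes (median 26239614). The 8 neuronal markers together, which include Rbfox3, Map2 and Snap25, summed to 5796 to 7681 normalized CPM in every group, and none of them was at 0 in any library. The 7 astrocyte markers summed to 883 to 1928, the 7 markers of the oligodendrocyte lineage to 101 to 313 and the 4 fibroblast markers to 95.7 to 431. The 6 microglial markers summed to 4.43 to 8.76, with P2ry12 at 0 in 6 libraries, and the 4 endothelial markers to 1.22 to 5.94, with Cldn5 at 0 in 27. The cultures thus also held glial and fibroblast RNA, and in such mixed samples fewer cells of a type and less RNA per cell cannot be told apart.

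Adding NMDA to TTX for 1 h raised 67 of the 79 members and lowered none of them (edgeR's quasi-likelihood test, Benjamini-Hochberg adjusted p under 0.05 over all 32852 genes tested; LP TTX/NMDA vs LP TTX). Of all genes tested 11.6% were raised, and of the 10945 genes with a mean CPM of at least 5, 17.5%. The members' median log2 fold change was 0.40, and all 79 were above 0, while the median of the genes with a mean CPM of at least 5 was −0.06. The medians within the preparations lay between 0.29 and 0.51. In 67 members every LP TTX/NMDA library was above every LP TTX library, which held for 11.2% of the genes with a mean CPM of at least 5. The large subunit had 38 of 47 members raised with a median of 0.36 and the small subunit 29 of 31 with a median of 0.41.

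**Figure D2:**
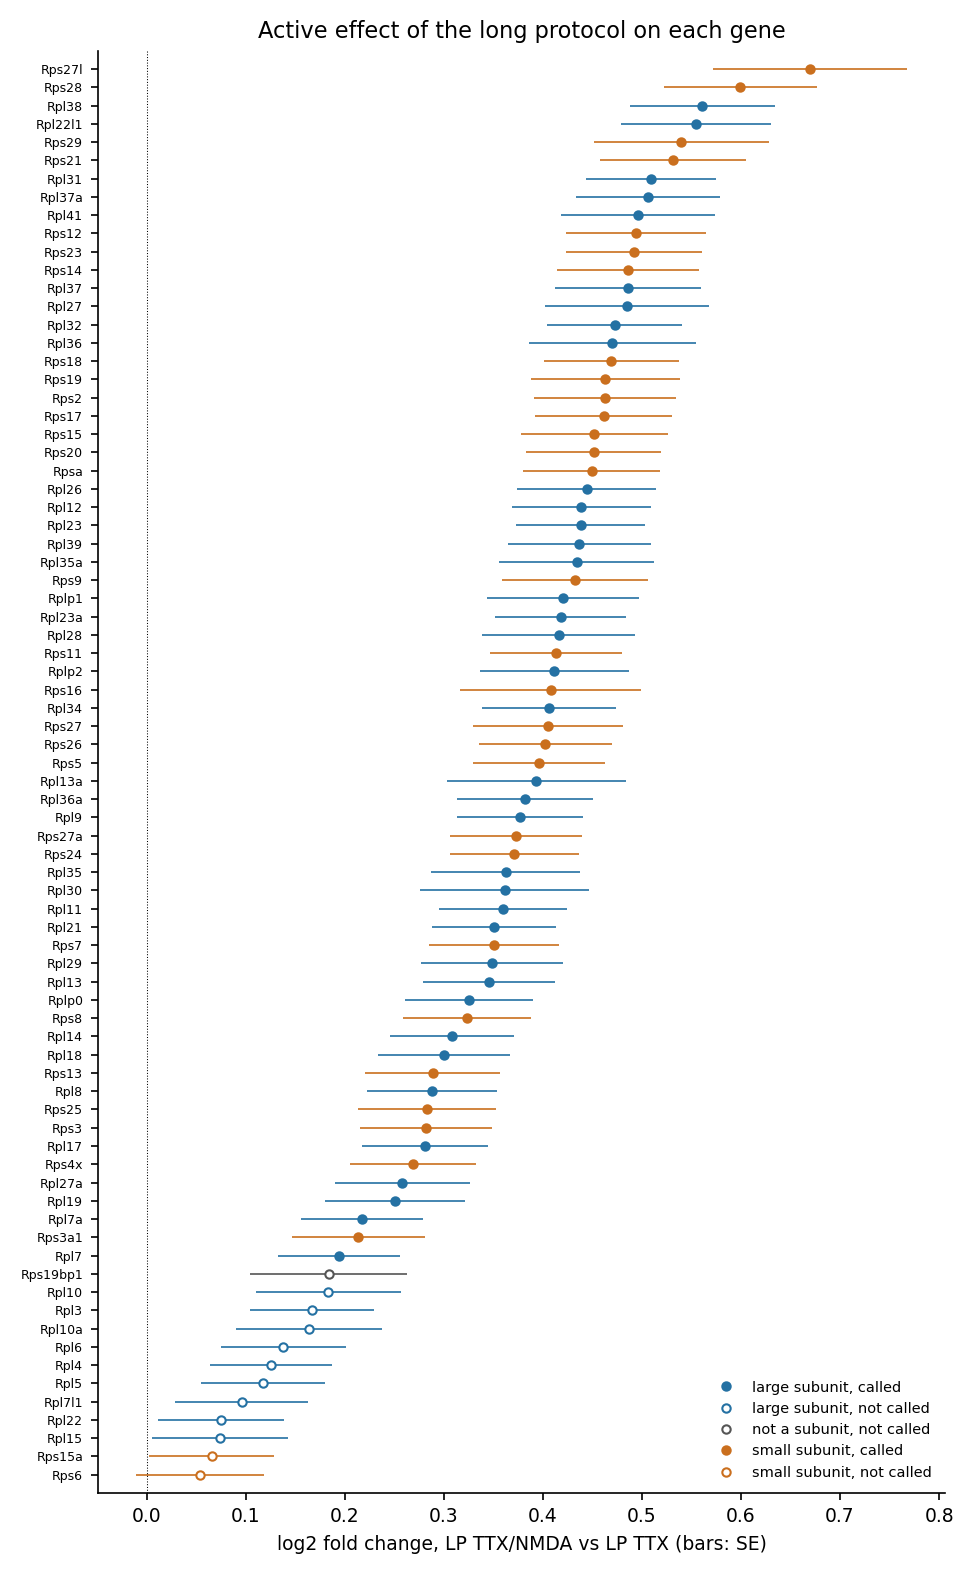
Log2 fold change between LP TTX/NMDA and LP TTX (x axis) for 78 of the 79 members (y axis, sorted). Bars are standard errors from edgeR, filled points passed the test and open points did not. Values run from 0.05 (Rps6) to 0.67 (Rps27l).

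All 79 members had their highest mean of the 9 conditions in LP TTX/NMDA, as did 24.1% of the genes with a mean CPM of at least 5. With library totals in place of TMM factors, the median of the genes with a mean CPM of at least 5 shifted from −0.06 to 0.12 and the members' median to 0.57, and all 79 were called higher. A change of scaling moves all genes by about the same amount, so the distance of the members' median from that of the genes with a mean CPM of at least 5 (members included), 0.45, is the same by construction. Of all changed genes, 49.6% were higher with TMM and 76.8% with library totals.

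Rps27l and Rps28, small subunit proteins, had the largest changes. Rps27l, a paralogue of Rps27 that is known as a target of p53, had 22.2, 19.7, 18.1, 23.4 and 18.1 normalized CPM in LP TTX/NMDA in preparations 1, 3, 6, 7 and 8, and 13.05, 13.45, 11.21, 14.26 and 11.28 in LP TTX. Every NMDA library was above every library with TTX alone. The log2 fold change was 0.67 ± 0.10 (SE) with an adjusted p of 4.3e-06 in edgeR. Rps28 had 89.5, 74.7, 73.8, 86.9 and 71.6 normalized CPM with NMDA and 57.0, 56.9, 49.9, 49.3 and 47.5 with TTX alone. Here too the groups lay apart, with a log2 fold change of 0.60 ± 0.08 (SE) and an adjusted p of 5.6e-07 in edgeR.

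Of the large subunit, Rpl38 and Rpl22l1 rose most. Rpl38, known for its part in translating Hox mRNAs in the embryo, had 66.0, 54.5, 60.3, 59.3 and 53.0 normalized CPM with NMDA and 41.3, 41.4, 39.3, 39.2 and 36.4 with TTX alone (log2 fold change 0.56 ± 0.07, SE; adjusted p 7.1e-07, edgeR). Rpl22l1 had 54.5, 67.6, 60.7, 59.0 and 57.0 with NMDA and 34.47, 41.04, 44.52, 41.96 and 40.05 with TTX alone (log2 fold change 0.55 ± 0.08, SE; adjusted p 1.5e-06, edgeR). In both genes the lowest NMDA library exceeded the highest TTX library. Rps29 followed with a log2 fold change of 0.54 ± 0.09 (SE).

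The stalk proteins, which bind the translational GTPases, rose together. The log2 fold changes of Rplp0, the base of the stalk, Rplp1 and Rplp2 were 0.33 ± 0.06, 0.42 ± 0.08 and 0.41 ± 0.08 (SE). Rplp0 had 425, 376, 370, 415 and 365 normalized CPM with NMDA and 318, 316, 303, 306 and 307 with TTX alone, and the groups did not overlap. Rpsa, a small subunit protein also known as the laminin receptor precursor, had 518, 429, 435, 493 and 417 with NMDA and 345, 331, 337, 328 and 330 with TTX alone, a log2 fold change of 0.45 ± 0.07 (SE).

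Rps6, the substrate of the S6 kinases and the member with the smallest change, had 76.0, 71.6, 66.7, 74.5 and 71.4 normalized CPM with NMDA and 67.8, 68.3, 71.6, 68.3 and 69.3 with TTX alone. The groups overlapped, and the log2 fold change of 0.05 ± 0.06 (SE) did not pass the test (adjusted p 0.58, edgeR). The other members that were not called were Rps15a, Rpl15, Rpl22, Rpl7l1, Rpl5, Rpl4, Rpl6, Rpl10a, Rpl3, Rpl10 and Rps19bp1, with log2 fold changes from 0.07 to 0.18. Rpl3, which sits at the peptidyl transferase center, missed the threshold with an adjusted p of 0.052 (edgeR). A p above the threshold does not show that these genes were unchanged: each of the 12 was higher with NMDA in at least 4 of 5 preparations, and their standard errors were 0.06 to 0.08.

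Rpl5 and Rpl11, which form the 5S ribonucleoprotein that can bind Mdm2, had unequal values in this comparison: Rpl11 rose by 0.36 ± 0.06 (log2, SE) and Rpl5, at 0.12 ± 0.06, was not called. The difference between the 2 genes was not tested. Rps27a, which is made as a fusion with ubiquitin, rose by 0.37 ± 0.07 (log2, SE). Rpl39 at the tunnel exit rose by 0.44 ± 0.07, Rps19 and Rps14, both known from hereditary or acquired anemias, by 0.46 ± 0.08 and 0.49 ± 0.07, and the X-linked Rps4x by 0.27 ± 0.06 (log2, SE).

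Among the paralogue pairs, Rpl22l1 was called in the LP active effect and Rpl22 was not. Rpl22 had 117, 159, 123, 135 and 142 normalized CPM in the Control, 120, 124, 120, 121 and 138 after 2 h Bic and 143, 142, 127, 140 and 146 in LP TTX/NMDA, and it was called in none of the 10 comparisons. Rpl22l1 had 22.89, 45.85, 29.02, 31.55 and 33.52 in the Control and 43.07, 44.05, 40.24, 45.23 and 44.04 after 2 h Bic. It was the only member called after 2 h Bic, and its Control preparation 3 lay above all 5 of the Bic libraries. Rps27l rose more than Rps27 in the LP active effect (0.67 against 0.41, log2), and Rpl7 rose by 0.19 ± 0.06 where Rpl7l1, at 0.10 ± 0.07, was not called. These differences between paralogues were not tested. Rpl36a rose by 0.38 ± 0.07, and its paralogue Rpl36al was under the minimum.

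**Figure D3:**
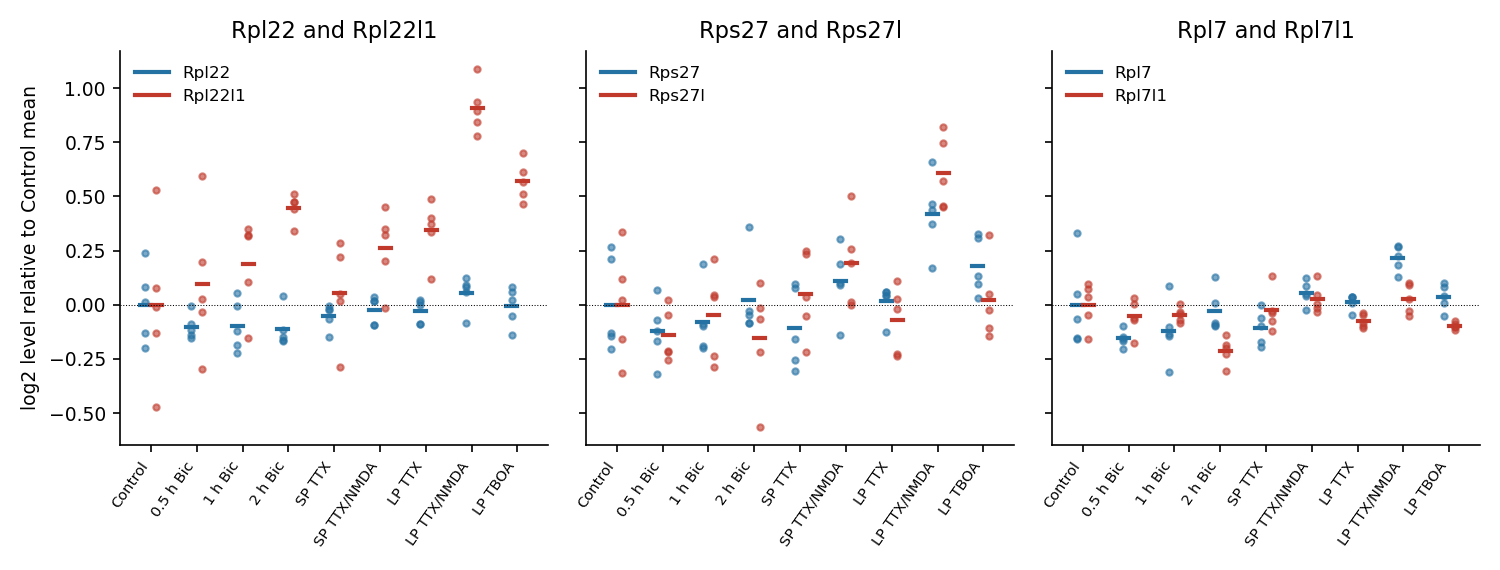
Normalized level of 3 pairs of paralogues in the 9 conditions (x axis), as log2 relative to the mean log2 level of the Control libraries (y axis). Points are the 5 libraries of a condition and short lines their mean. Rpl22l1 and Rps27l reached their highest level in LP TTX/NMDA, and Rpl7l1 was lowest after 2 h Bic.

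Several other measures moved in LP TTX/NMDA beside the members. All 9 mitochondrially encoded genes with a mean CPM of at least 5 rose (median log2 fold change 0.82), and their share with the other mt- genes was 1.40% to 1.87% of counts against 0.740% to 0.938% in LP TTX. Of the 7 astrocyte markers 6 rose and 1 fell (median 0.84), of the 7 oligodendrocyte lineage markers 5 rose (0.77), all 4 fibroblast markers rose (0.88), 2 of 6 microglial and 1 of 4 endothelial markers rose, and 3 of 8 neuronal markers fell, where 31.5% of all genes with a mean CPM of at least 5 fell. The summed level of the astrocyte markers was 1093 to 1928 normalized CPM in LP TTX/NMDA and 965 to 1448 in LP TTX, and that of the neuronal markers was 5930 to 6489 and 6878 to 7681. The part of these shifts in the change of the ribosomal protein genes was not tested.

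Exon length also moved with the change. Ribosomal protein genes are short, with a median merged exon length of 1781 bases (383 to 6270), and the merged length counts the exons of every annotated transcript. Genes with a mean CPM of at least 5 that are no members were divided into 10 length classes of about equal size. The members were then placed in these classes. Among genes that are no members, the median log2 fold change of the LP active effect fell from 0.22 in the shortest class (up to 2082 bases) to −0.28 in the longest, and 43.97% of the 1087 genes in the shortest class rose. Within that class 49 members had a median of 0.42, and 45 of them rose. In the second class, up to 2854 bases, 13 members had a median of 0.35 against 0.08 in the other genes. The third held 8 members with a median of 0.26 against 0.02, and the fourth 5 members with a median of 0.43 against −0.04. The members were thus above other genes of the same length class in median in each of these classes, and the part of length in their change was not tested. Across the 79 members Spearman's rho between the log2 fold change and exon length was −0.372 and that with mean CPM −0.189, as a description over genes that share the same 10 libraries.

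**Figure D4:**
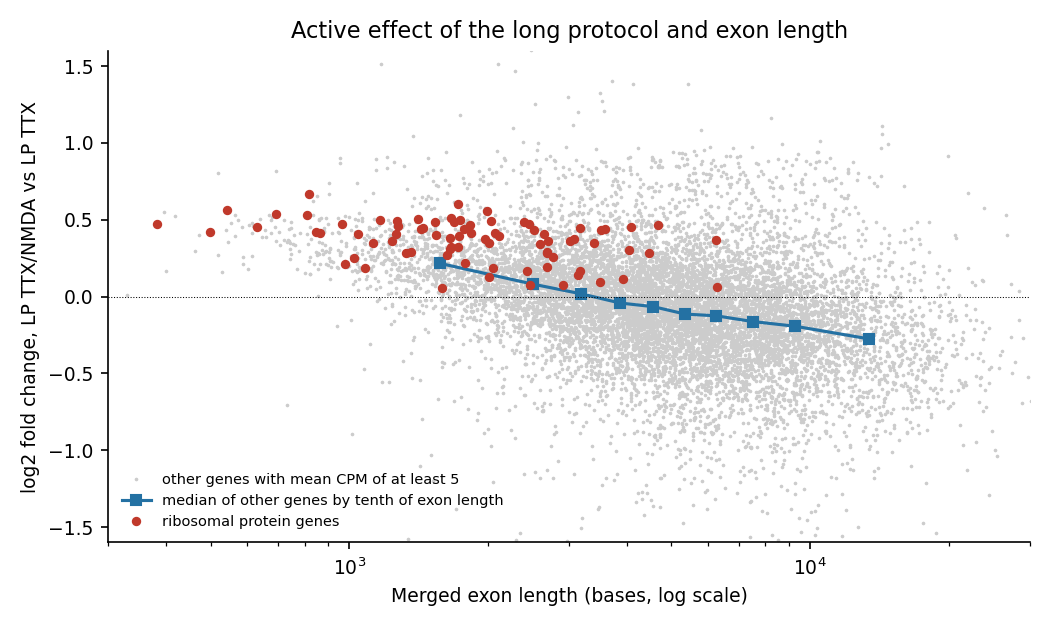
Log2 fold change between LP TTX/NMDA and LP TTX (y axis) against merged exon length (x axis, bases, log scale) for the 79 members (red) and the other genes with a mean CPM of at least 5 (gray), with medians of the other genes by length class (blue squares). Of all genes, 52 that are no members lie outside the axes. The medians fall from 0.22 to −0.28, and the members lie above 0 at every length.

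The total effect of the LP rests on the same LP TTX/NMDA libraries, set against 2 h Bic. In this comparison 66 of 79 members rose and none fell (edgeR, adjusted p under 0.05), with 11.7% of all genes tested and 17.8% of those with a mean CPM of at least 5 raised. The median log2 fold change was 0.29, and all 79 were above 0. In 40 members the groups did not overlap, which held for 11.4% of the genes with a mean CPM of at least 5. The largest changes were those of Rps27l (0.75 ± 0.11), Rpl39 (0.56 ± 0.07), Rps24 (0.50 ± 0.07), Rpl23a (0.50 ± 0.07) and Rpl38 (0.46 ± 0.08; all log2, SE). Rpl39 had 97.7, 88.3, 77.8, 95.7 and 89.2 normalized CPM with TTX/NMDA and 56.5, 62.6, 54.2, 64.2 and 65.7 after 2 h Bic, without overlap. Rps6 again had the smallest value, 0.01 ± 0.07. Other markers moved here as well: 6 of 7 astrocyte markers were higher and 1 lower, 5 of 7 oligodendrocyte, 3 of 4 fibroblast and 1 of 6 microglial markers and 9 of 9 mitochondrially encoded genes were higher, and of 8 neuronal markers 3 were lower and 1 higher, where 29.6% of genes with a mean CPM of at least 5 were lower. Their part in the result was not tested. Without preparation 1 the count was 48 of 79, the lowest when any preparation was left out.

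Uninterrupted AP firing left the level of nearly all members within the spread of the libraries. After 0.5 h Bic, 0 of 79 were called by edgeR and 0 by DESeq2, while 16 had an unadjusted p under 0.05, and 0.289% of all genes tested were called. Of the 79, 78 had a log2 fold change below 0 with a median of −0.14, and 59 had their lowest mean of the 9 conditions here, against 11.6% of the genes with a mean CPM of at least 5. Much of this rested on Control preparation 3: without that library the median was −0.06. With all libraries, the 49 members in the shortest class of exon length had a median of −0.14 and other genes −0.10. The part of length was not tested. After 1 h Bic, 0 members were called by edgeR and 0 by DESeq2, 4 had an unadjusted p under 0.05, and 1.16% of all genes were called. The median was −0.06, and 0.02 without Control preparation 3.

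After 2 h Bic, Rpl22l1 was higher with a log2 fold change of 0.39 ± 0.11 (SE) and an adjusted p of 0.012 (edgeR), and the other 78 members were not called, with a median of 0.01. Of all genes tested 4.24% were higher, and of those with a mean CPM of at least 5, 8.97%. Without preparation 1, no member was called. Without the Control library of preparation 3, Rpl22l1 (0.54) and Rpl41 (0.26) were called. Rpl7l1 had 41.3, 49.2, 44.5, 47.2 and 48.4 normalized CPM in the Control and 37.17, 39.998, 40.50, 39.33 and 41.79 after 2 h Bic, which was lower in 5 of 5 preparations. Its log2 fold change of −0.23 ± 0.08 (SE) missed the threshold (adjusted p 0.060, edgeR). It was called lower with culture preparation as a block over genes that pass the filter filterByExpr (−0.22; 1 member lower in place of 0). Rpl7l1 was also called lower with that filter alone (−0.22) and by DESeq2 (−0.21). It was singled out after its values were seen.

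**Figure D5:**
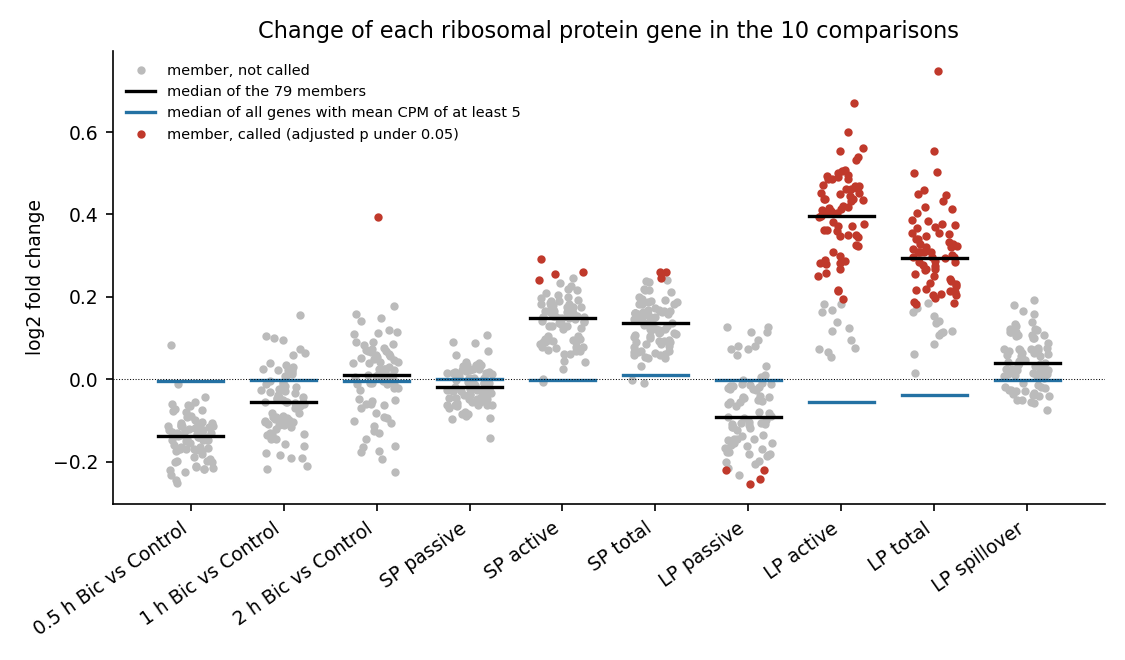
Log2 fold change (y axis) of the 79 members in the 10 comparisons (x axis). Points are members, red where they passed the test (edgeR, adjusted p under 0.05), and lines are the median of the members (black) and of all genes with a mean CPM of at least 5 (blue). The members' median is 0.40 in the LP active effect and 0.15 in the SP active effect, and −0.14 to 0.01 in the comparisons of Bic with Control. The comparisons share libraries.

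The passive effect of the SP called 0 of 79 members in edgeR and 0 in DESeq2, and 0 had an unadjusted p under 0.05 (0.268% of all genes called; median −0.02). In the LP, TTX lowered 4 of 79 members, among them Rpl36 (−0.25 ± 0.07), Rps15 (−0.24 ± 0.06) and Rplp1 (−0.22 ± 0.07; log2, SE). Of all genes tested 1.62% were lowered, and of those with a mean CPM of at least 5, 4.25%, a share near that of the members. The median was −0.09, and 66 of 79 were below 0. Without preparation 7 no member was lower, without preparation 3 or 8 it was 1, and without preparation 1 it was 8. With culture preparation as a block, 29 members were lower, and with DESeq2 15. Without the 2 h Bic library of preparation 8, 0 members were lower and Rps24 was higher (0.21). The result therefore rests on that library and on the model, and the LP passive and LP active effects share the LP TTX libraries, with opposite sign. In this comparison other genes of the shortest class of exon length had a median of −0.07 and those of the longest 0.07. The difference of the passive effect between LP and SP was called in 0 members by edgeR and 0 by DESeq2, with 1 at an unadjusted p under 0.05 and 0.256% of all genes called.

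In the SP, where NMDA was present for 0.5 h, the active effect was called in few members. Of the 79, 4 rose, namely Rpl31 (0.29 ± 0.08), Rps14 (0.26 ± 0.08), Rps12 (0.26 ± 0.07) and Rpsa (0.24 ± 0.07; log2, SE), and none fell, against 0.956% of all genes tested and 1.53% of those with a mean CPM of at least 5 that rose. The median was 0.15, with 78 of 79 above 0, and the medians within preparations lay between −0.07 and 0.39. In the shortest class of exon length, the 49 members had a median of 0.15 and other genes 0.12. The part of length in the change was not tested. Rpsa had 394, 383, 349, 422 and 375 normalized CPM with NMDA and 317, 316, 342, 298 and 343 with TTX alone, just without overlap. Rps27l had 13.2, 15.8, 15.1, 18.7 and 13.3 with NMDA and 11.4, 13.5, 15.7, 15.5 and 12.7 with TTX alone, and these overlapped. With culture preparation as a block 13 members were higher, with the gene filter of that fit alone 10 and with DESeq2 11. The count was 0 without preparation 1, 3 or 7, 19 without preparation 6 and 14 without preparation 8. Of the 9 mitochondrially encoded genes 5 rose (median 0.39). Of the astrocyte markers none rose and 1 fell (median 0.09). No oligodendrocyte or fibroblast marker was called, with medians of 0.29 and 0.32, and the microglial median was −0.10. Of the 8 neuronal markers 1 rose and 2 fell (median 0.04), where 9.37% of genes with a mean CPM of at least 5 fell. Their part in the result was not tested.

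In the total effect of the SP, Rpl23a (0.26 ± 0.08), Rps24 (0.26 ± 0.08) and Rpl31 (0.25 ± 0.07; log2, SE) rose, against 0.891% of all genes tested and 1.64% of those with a mean CPM of at least 5. In median the members changed by 0.14 (log2). In the shortest class of exon length, the 49 members had a median of 0.13 and other genes 0.12. Of the 9 mitochondrially encoded genes 7 were higher (median 0.54). Of 8 neuronal markers 2 were lower (median 0.03), and of 7 astrocyte markers 1 was (median 0.27). Among genes with a mean CPM of at least 5, 9.28% were lower. No oligodendrocyte or fibroblast marker was called, with medians of 0.29 and 0.36. Their part in the result was not tested. With culture preparation as a block 25 members were higher. Without the 1 h Bic library of preparation 8, 27 members were higher, and without each of the preparations 1, 3, 6 and 7 none was.

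The test of the difference between the protocols called 5 members with a larger active effect in the LP than in the SP and none with a smaller one (edgeR, 20 libraries). These included Rps27l (0.54 ± 0.15), Rpl38 (0.38 ± 0.11), Rps21 (0.37 ± 0.11) and Rps20 (0.34 ± 0.10; differences of log2 fold changes, SE). The same test called 0.722% of all genes and 1.44% of those with a mean CPM of at least 5 in this direction. The members' median difference was 0.24, with 77 of 79 above 0, and 30 were called with culture preparation as a block and 17 by DESeq2. The count was 0 without preparation 1 or 6, 2 without preparation 3 or 8 and 7 without preparation 7. The protocols differ in the length of Bic, TTX and NMDA, which cannot be told apart here.

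With TBOA, 0 of 79 members were called by edgeR and 0 by DESeq2, and 4 had an unadjusted p under 0.05, against 0.602% of all genes called. The median was 0.04. Rpl39 had the largest value, 0.19 ± 0.07 (log2, SE), with 62.1, 70.9, 72.6, 69.1 and 69.9 normalized CPM with TBOA. With culture preparation as a block Rpl23a was called higher (0.19), and without the 2 h Bic library of preparation 8 Rps27 was (0.26).

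Genes of the mitochondrial ribosome and of translation were also followed. Of 75 genes of the mitochondrial ribosome with a mean CPM of at least 5, 33 rose and 0 fell in the LP active effect (median log2 fold change 0.19). Mrpl33 (0.57 ± 0.09) and Mrpl34 (0.47 ± 0.09) were among them. In the same comparison 17.5% of all genes with a mean CPM of at least 5 rose and 31.5% fell. In the shortest class of exon length, 43.97% of the genes that are no members rose. After 2 h Bic, 11 of these 75 fell and none rose (median −0.12), with Mrpl44 at −0.68 ± 0.09, while 11.1% of all genes with a mean CPM of at least 5 fell. Of 23 translation factors and other TOP mRNAs, 8 rose and 2 fell in the LP active effect (median 0.11), against the same 17.5% and 31.5%. Those that rose included Fau (0.36 ± 0.07), which encodes a ribosomal protein fused to a ubiquitin-like protein, the prefoldin subunit Pfdn5 (0.35 ± 0.07) and Tpt1 (0.35 ± 0.06).

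Ribosome biogenesis factors, which process rRNA and assemble the subunits, were called in both directions. Of 40, 5 rose and 9 fell (median −0.08) in the LP active effect, where 17.5% of genes with a mean CPM of at least 5 rose and 31.5% fell, with Utp4 (−0.45 ± 0.08), Heatr1 (−0.43 ± 0.08), Tsr1 (−0.43 ± 0.07) and Ddx21 (−0.40 ± 0.07) as the 4 largest. After 2 h Bic, 4 of the 40 rose and 5 fell, against 8.97% and 11.1% of genes with a mean CPM of at least 5, with the rRNA methyltransferase fibrillarin, Fbl, at 0.57 ± 0.09 and the assembly factor Rrs1 at −0.46 ± 0.09. Of 17 genes of the mTORC1 pathway, regulators of TOP mRNAs and the transcriptional regulators Myc, Mycn and Maf1, 3 rose and 6 fell in the LP active effect, shares near the 17.5% and 31.5% of all genes with a mean CPM of at least 5, with Mycn at 0.83 ± 0.12, the S6 kinase gene Rps6kb2 at 0.45 ± 0.09, Larp4 at −0.43 ± 0.08 and the mTORC1 subunit gene Rptor at −0.40 ± 0.07.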

How the data were processed

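RNA was sequenced from 45 libraries of mouse hippocampal primary neurons, 5 for each of 9 conditions. The authors selected poly-A RNA, made strand-specific libraries, sequenced them single-end with 75 cycles, aligned the reads with STAR (2.5.4b) to GRCm38 with the Ensembl 94 annotation and counted reads per gene with featureCounts (1.6.5) on the sense strand, without multi-mapping or multi-overlapping reads. The raw counts they deposited were used unchanged, and their own DESeq2 test was not used. Gene symbols, biotypes and exons came from GENCODE release 21 of the mouse series (GRCm38), which matched 54409 of 54532 IDs, and the other 123 held at most 0.0456% of a library's counts.

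Genes with at least 1 read in any library of the 2 conditions were tested on those 10 libraries with edgeR (4.0.16, R 4.3.3; TMM factors, quasi-likelihood test, no block), and differences between protocols on 20 libraries with an interaction term. Genes with a Benjamini-Hochberg adjusted p under 0.05 over all genes tested were called. The standard error is the log2 fold change divided by the square root of F. Levels are TMM-normalized CPM over the 45 libraries. The fits were tested on simulated data. The smallest difference between 2 libraries of a condition exceeded sampling noise (chi-square per degree of freedom 7.40), and each library counted as 1 replicate. The labels number the culture preparations, and libraries with the same number come from the same preparation. In the LP active comparison, their deviations from the condition means correlated with r = 0.427 to 0.781 over 10945 genes, and over all 10 comparisons with −0.273 to 0.781. The fit with preparation as a block was made over genes that pass filterByExpr.

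Alternatives were DESeq2 (1.42.0), RLE factors, library totals, TMM factors without the members, filterByExpr, the block, all 45 libraries in 1 fit, leaving out each preparation, and minima of 1 and 20 CPM. Leaving out single libraries that stood apart was chosen after seeing the data. Members and lists were chosen with earlier results of these data known, so counts over them are descriptions. Named are up to 5 called members with the largest change in each direction per comparison, the 10 highest and 5 lowest by mean CPM, and members fixed by role. Of other lists, up to 4 called genes with the largest change are named. Some genes that these rules would name are not reported here. Start-site windows were read from RefSeq by symbol and chromosome, with 20 members not matched. No cause of any change was tested.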

Additional observations from a re-analysis of the deposited data

Results flagged for a closer look

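Of 45 groups of 5 libraries tested for a value far from the others (the members' share of counts in the 9 conditions, and the level of 9 members in 4 conditions), 8 were marked by Dixon's criterion, which chance does in about 1 of 20 groups. The groups draw on the same libraries, so the marks are not independent and their number cannot be set against that rate. All marks fell in 1 h Bic and 2 h Bic of preparation 8 and in Control preparation 3. The share of counts on the members was 1.11% in 1 h Bic of preparation 8, where the others lay between 0.854% and 0.916%, and 1.08% in 2 h Bic of preparation 8, where the others lay between 0.879% and 0.915%. In the same 2 h Bic library Rps28 was 67.4, Rpl38 51.4 and Rpl22 138.2 normalized CPM. In Control preparation 3 Rps28 was 68.4, Rpl38 53.3 and Rpsa 462 normalized CPM, each the highest of its group. The members' summed share in this Control library, 1.24%, did not pass the criterion.

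The active effect differed between the protocols in 5 members by the interaction test. The difference, LP minus SP on the log2 scale, was, among others, 0.54 for Rps27l, 0.38 for Rpl38, 0.37 for Rps21 and 0.34 for Rps20.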

How the results depend on the processing

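The LP active and total effects on the members kept their direction and stayed within 1.5 times their count under every alternative run, with 64 to 79 and 48 to 79 members higher. The smaller counts depended on the model. For 2 h Bic, 1 member was lower in place of 0 with DESeq2, filterByExpr, the replicate block and all 45 libraries, and with library totals 2 were lower and 0 higher; the median reversed to −0.081 with library totals and ranged from −0.0279 without the 2 h Bic library of preparation 8 to 0.0949 without preparation 3. The SP active count of 4 became 11 with DESeq2, 28 with library totals, 10 with filterByExpr, 13 with the replicate block and 2 with all 45 libraries. The SP total count of 3 became 24 with library totals, 1 with filterByExpr, 25 with the replicate block and 1 with all 45 libraries. The LP passive count of 4 lower became 15 with DESeq2, 1 with library totals, 7 with filterByExpr, 29 with the replicate block and 0 with all 45 libraries. The spillover count became 1 with the replicate block. The count of the difference of the active effect, 5, became 17 with DESeq2, 24 with library totals, 8 with filterByExpr and 30 with the replicate block. With a preparation or library left out, the counts ranged from 0 to 3 higher for 2 h Bic, 0 to 19 for SP active, 0 to 36 for SP total, 0 to 1 higher and 0 to 8 lower for LP passive, 0 to 1 for spillover and 0 to 7 for the difference. The ratio of the members' share became 1.28 with TMM effective library sizes. Library totals also shifted the median of genes with a mean CPM of at least 5 in LP total from −0.04 to 0.16 and, over all called genes, the share that was higher from 22.3% to 53.9% in SP active, from 20.7% to 59.9% in SP total, from 51.2% to 79.97% in LP total, from 28.1% to 59.3% for the difference of the active effect and from 47.0% to 28.5% for 2 h Bic. The replicate block changed no other count of members by over 1.5 times. Apart from library totals, whose construction shows the cause, the causes of these changes were not tested. Uniquely mapped reads limit the genes with processed copies.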
